A study of Rattus norvegicus with 2 samples.

Results

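The lymphocyte-attracting and homeostatic CXC chemokines of rat cartilage, Cxcl9 (ENSRNOG00000022242), Cxcl10 (ENSRNOG00000022256), Cxcl12 (ENSRNOG00000013589), Cxcl13 (ENSRNOG00000024899) and Cxcl14 (ENSRNOG00000011984), were followed across cell types and between an arthritic and a control library. They were taken by gene symbol, and all 5 were among the 18147 genes listed for both libraries. The CIA library (collagen-induced arthritis) came from cartilage of Lewis rats that had been given type II collagen with complete Freund's adjuvant and were collected on day 14. The control library came from cartilage of Lewis rats whose label gives no treatment and which the design text calls sham. Both tissues were dissociated with the enzyme TrypLE at 37 °C, and single-cell libraries were made from them with the Chromium 3' droplet kit, version 2. How many animals stand behind a library, their age and their sex are not stated. Since each group is 1 library, the differences have no replicate check, no test was run, and what is compared is these libraries and not the conditions.

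CXC chemokines are small secreted proteins that steer white blood cells through G protein-coupled receptors. Cxcl9 and Cxcl10 are induced by interferons, and both attract activated T cells and natural killer cells that carry Cxcr3. Cxcl13 attracts B cells and some helper T cells through Cxcr5 and is known from the follicles of lymphoid organs and from lymphoid aggregates in the synovium of arthritic joints. Cxcl12 acts through Cxcr4, keeps blood stem cells and B cell precursors in the marrow and guides the growth of arteries. Cxcl14 is made by many resting fibroblasts and epithelia, and its receptor is less settled. Cxcl12 and Cxcl14 are called homeostatic because they are made without inflammation.

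The CIA library held 8622 cell barcodes and 105752977 UMIs (unique molecular identifiers, each marking 1 captured RNA molecule), and the control library 5456 barcodes and 76927821 UMIs. Barcodes held a median of 10540 UMIs in the CIA library and 11870 in the control library, and 8409 CIA and 5349 control cells were kept. The libraries shared 52 barcode sequences. Each kept cell was placed in a cell type gate from the levels of fixed marker genes, none of them a chemokine. Although the labels give cartilage, the chondrocyte gate held 30 CIA and 371 control cells. Larger gates were the macrophages with 2017 CIA and 708 control cells, the fibroblasts with 1621 and 1169, the endothelial cells with 549 and 657, the lining fibroblasts of the synovial surface with 538 and 213, and the monocytes with 267 and 174. No gate took 3048 CIA and 1798 control cells. The lymphocyte gates were small, with 22 CIA and 12 control cells for T or NK cells and 0 CIA and 48 control cells for the B lineage.

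The chemokines differed in their main source, with endothelial cells leading for Cxcl9 and Cxcl12, and for Cxcl10 the leading gate differed between the libraries. Levels are given as CPM, the UMIs of a gene for every 1000000 UMIs summed over the cells of a gate. Among the gates with at least 50 cells in each library, Cxcl9 and Cxcl12 were highest in endothelial cells, Cxcl10 in macrophages, Cxcl13 in lining fibroblasts and Cxcl14 in fibroblasts, in each case by the level averaged over the libraries. In the CIA library Cxcl10 was highest in monocytes, at 44.4 CPM (95% interval 36.3 to 53.8) beside 20.2 CPM (18.3 to 22.1) in macrophages. In the control library it was highest in macrophages, at 88.5 CPM (82.9 to 94.4) beside 29.7 CPM (22.2 to 38.9) in monocytes. The monocyte levels rested on few cells, as 5 CIA cells held 40% and 1 control cell 26.9% of the Cxcl10 UMIs. Intervals on single levels are exact Poisson intervals. Like the exact binomial ones on shares and ratios, they describe counting error and leave out how cells and animals vary. The endothelial gate, 6.53% of kept CIA cells and 12.3% of kept control cells, held 39.2% of all Cxcl12 UMIs in the CIA library and 40.8% in the control library. Outside the compared gates, chondrocytes had Cxcl14 at 867 CPM (780 to 962) in 30 CIA cells and 704 CPM (681 to 728) in 371 control cells. Those CIA cells were above the CIA fibroblasts, at 436 CPM, and the control ones below the control fibroblasts, at 787 CPM. The 38 mural cells of the CIA library had 819 CPM of Cxcl13, but 1 cell held 94% of those UMIs.

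**Figure D1:**
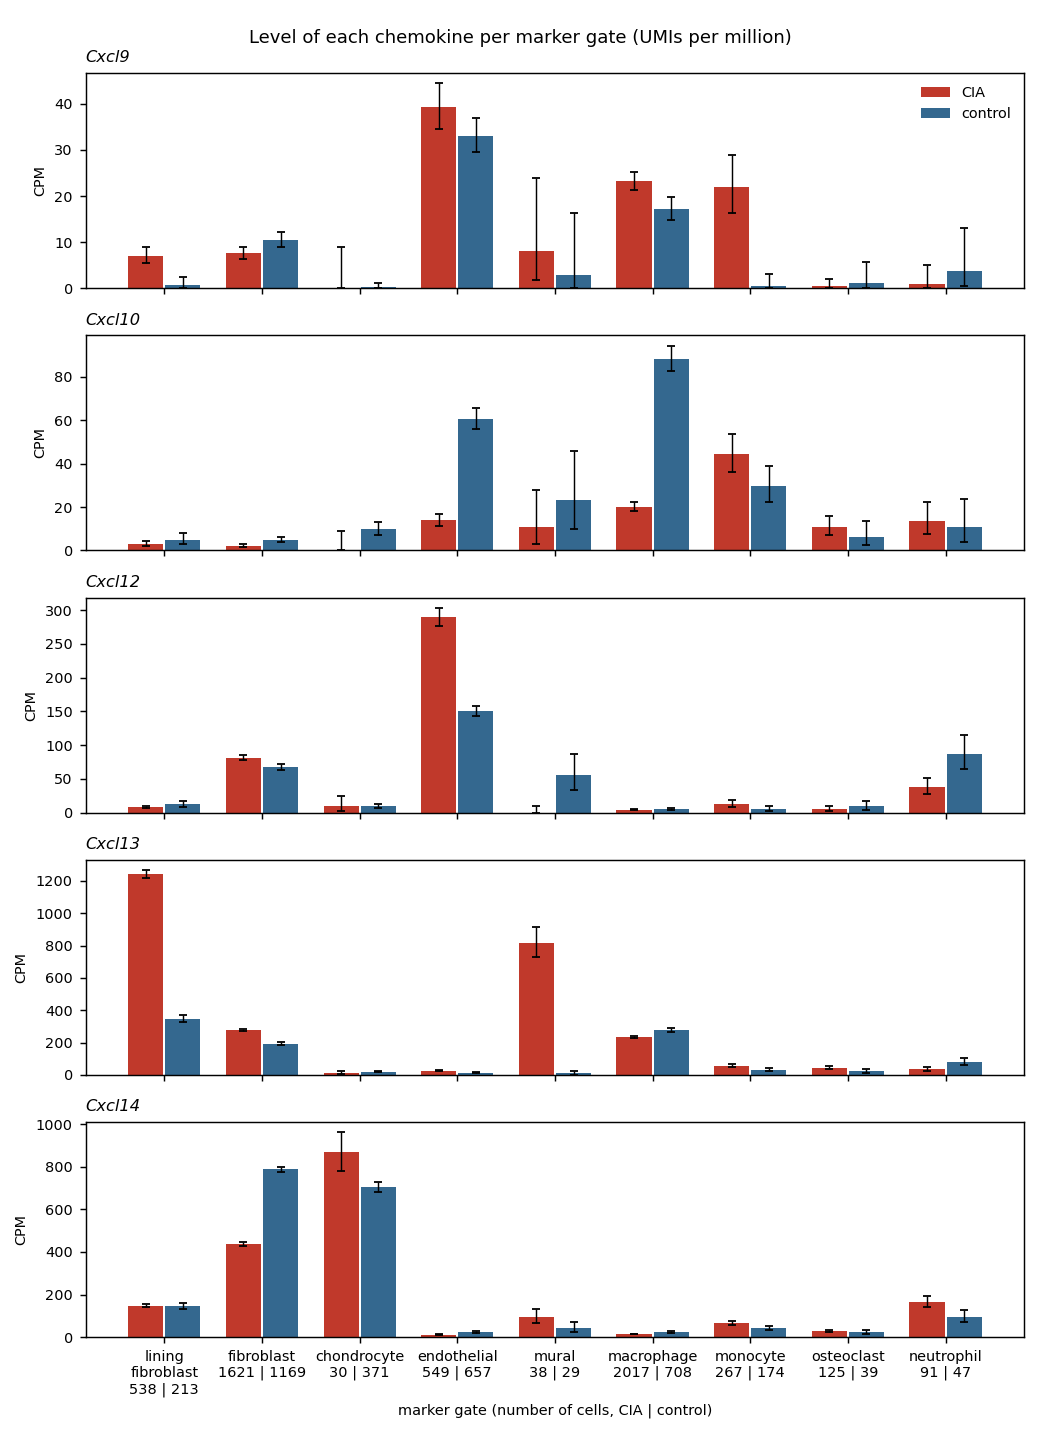
Level of each chemokine per marker gate in CPM (y axis, own scale per gene), with the CIA library in red left of the control library in blue. Bars are the level of the summed UMIs, error bars are exact Poisson 95% intervals for counting error, and the numbers under each gate are its cells. Cxcl10 stands at 88.5 CPM in control macrophages against 20.2 CPM in CIA macrophages, and Cxcl13 at 1243 CPM in CIA lining fibroblasts against 349 CPM in control ones.

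A size rule stands in for a test: the CPM of the CIA and control sums had to differ by at least 2-fold, with the whole exact 95% interval of the ratio past 1.5-fold, and the sums had to hold 100 UMIs or more between them for a gene to be measured. Of all genes measured, this rule called 0.257% higher and 1.07% lower in fibroblasts, 1.76% higher and 3.8% lower in lining fibroblasts, 0.5% higher and 3.59% lower in macrophages, 1.76% higher and 5.17% lower in monocytes, 0.532% higher and 1.56% lower in endothelial cells, and 0.811% higher and 4.27% lower over all kept cells. Against that background, Cxcl10 passed it as lower in macrophages, endothelial cells, fibroblasts and all kept cells, Cxcl14 as lower in endothelial cells, and Cxcl13 as higher in lining fibroblasts. Cxcl9 and Cxcl12 passed it in no gate. Under alternatives Cxcl12 passed it as lower in lining fibroblasts with clusters in place of gates (ratio 0.411, against 0.638 by gate) and as higher in endothelial cells, as given further on. Cxcl9 passed it as lower in fibroblasts under the stricter gate limit (0.112) and, on very few control UMIs, as higher in lining fibroblasts and monocytes when fewer UMIs were asked for. In lining fibroblasts the split of all called genes moved with the scaling, with 132 higher and 285 lower here against 187 higher and 219 lower under TMM factors, which also moved the median log2 ratio of all genes there to 0.07 from -0.06.

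**Figure D2:**
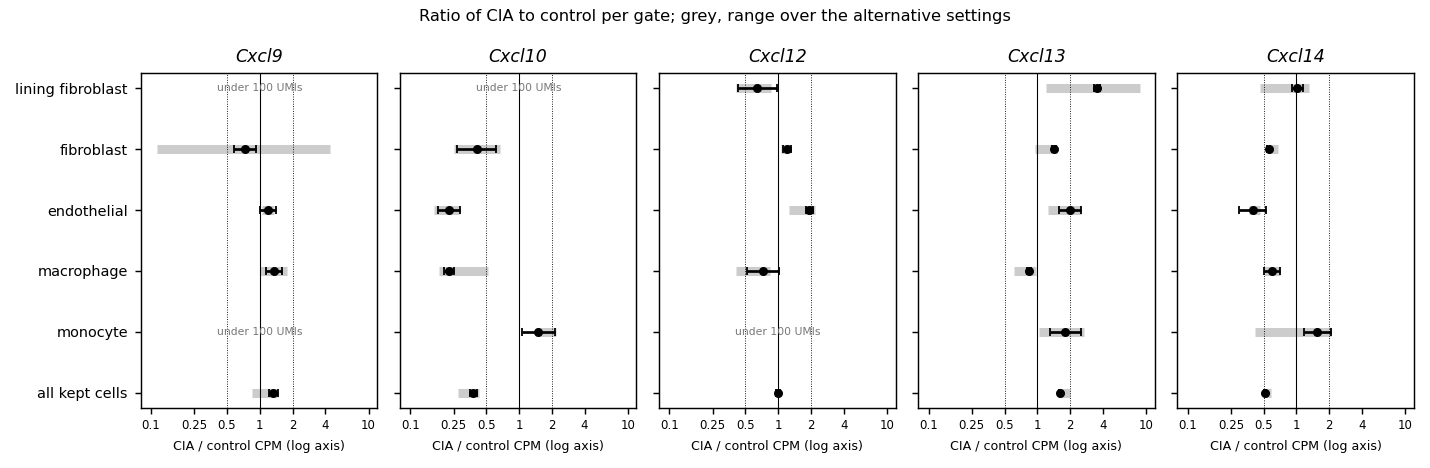
Ratio of CIA to control CPM (x axis, log scale) for each chemokine in each compared gate and over all kept cells (y axis). Points are ratios with their exact conditional 95% intervals, grey bands span the ratios under all alternative settings, and dotted lines mark 2-fold. The bands of Cxcl10 in macrophages and of Cxcl13 in lining fibroblasts are wider than their counting intervals, and the band of Cxcl9 in fibroblasts lies on either side of 1.

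Cxcl10 was the interferon-induced member that differed most. Macrophages held 20.2 CPM (449 UMIs) in the CIA library and 88.5 CPM (919 UMIs) in the control library, a ratio of 0.228 (95% interval 0.203 to 0.255). Endothelial cells held 13.8 CPM (90 UMIs) in the CIA library and 60.6 CPM (593 UMIs) in the control library, a ratio of 0.228 (0.181 to 0.285). Monocytes went the other way, with 44.4 CPM in the CIA library and 29.7 CPM (22.2 to 38.9) in the control library, a ratio of 1.5 (1.06 to 2.13) that did not pass the size rule. With clusters in place of gates the monocyte ratio was 2.19 (1.66 to 2.89) and passed as higher. That value is of cluster 11, where 34 of 315 CIA cells (10.8%) and 32 of 299 control cells (10.7%) carried Cxcl10. In the monocyte gate 5 CIA cells with at least 1000 CPM held 40% of the Cxcl10 UMIs, and 1 such control cell held 26.9%. Of the monocyte gate, cluster 11 held 51.7% in the CIA library and 71.3% in the control library, and cluster 3 held 35.6% and 1.72%. Fibroblasts held little, at 1.99 CPM in the CIA library against 4.83 CPM in the control library. Their lower call rested on 37 CIA and 79 control UMIs and was lost under the looser gate limit (ratio 0.674), with a mitochondrial limit of 10% (0.451) and under the stricter one, which left fewer than 100 UMIs. Over all kept cells Cxcl10 was at 10.7 CPM in the CIA library and 28.2 CPM in the control library, a ratio of 0.380 (0.353 to 0.409).

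The lower Cxcl10 was also seen in the number of cells that carried it. At least 1 UMI was found in 7.78% of CIA macrophages (95% Clopper-Pearson interval 6.65 to 9.04) and 21.0% of control macrophages (18.1 to 24.2), against 1.91% of CIA and 4.70% of control fibroblasts, where the gene was near its lowest and close to the 2.60% and 6.10% of lining fibroblasts, so the fibroblast share is read as background. Median depths were 9831 UMIs in CIA and 13380 in control macrophages, and 10380 in CIA and 12490 in control fibroblasts. After each cell had been thinned to 4000 UMIs, the macrophage shares were 4.66% and 13.3%. The control macrophages' UMIs were not those of 1 cell, since the cell with the most held 8.16% of them, and 6.01% in the CIA library.

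Sub-clusters of the macrophages, made with the 5 chemokines left out, split this difference. Of the CIA macrophages 45.8% lay in cluster 3 and 41.7% in cluster 6 of all cells, and of the control macrophages 68.4% lay in cluster 4. By sub-clusters of the gate, M4, led by the heat-shock gene Hsph1 and by Nfkbiz and Rel of the NF-kB pathway, made up 3.07% of CIA macrophages (62 cells) and 69.1% of control macrophages (489 cells). Within M4 Cxcl10 stood at 85.8 CPM (61.6 to 116) in the CIA library and 92.8 CPM (86.0 to 99.97) in the control library, and the intervals overlapped. In M2, led by the complement genes C1qa, C1qb and C1qc, it was at 27.8 CPM (24.0 to 32.1) in 758 CIA cells and 104 CPM (85.0 to 125) in 99 control cells. At least 1 Cxcl10 UMI was found in 66 of these CIA cells (8.71%) and 14 of these control cells (14.1%), so the control level rests on few cells. In M1, led by Spp1 and Fn1, Cxcl10 was low in either library, at 11.1 CPM (9.20 to 13.3) and 13.3 CPM (7.06 to 22.7). With the sub-clusters weighted alike in both libraries, an alternative added after the data were seen, the macrophage levels were 35.98 CPM in the CIA library and 69.1 CPM in the control library, a ratio of 0.520 that no longer reached 2-fold. In endothelial cells the same weighting gave a ratio of 0.279.

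**Figure D3:**
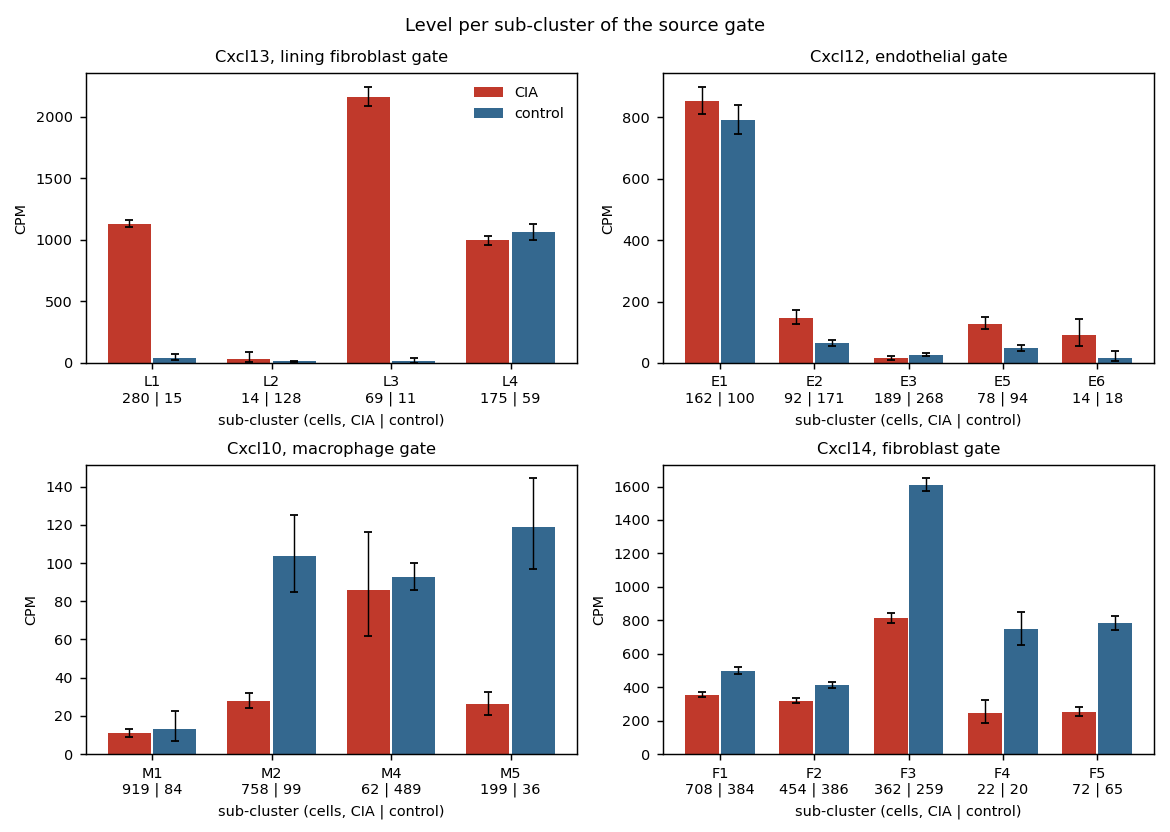
Level in CPM (y axis) of 4 chemokines in the sub-clusters of their source gates (x axis, with the number of CIA and control cells), CIA in red left of control in blue, with exact Poisson 95% intervals; sub-clusters with fewer than 10 cells in a library are left out. Cxcl13 is alike in L4 and far apart in L1 and L3, which hold 15 and 11 control cells; Cxcl12 is high in E1 in either library; Cxcl10 is alike in M4 and M1 and lower in CIA in M2 and M5; Cxcl14 is lower in CIA in each of the 5 sub-clusters drawn.

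A list of 16 immediate-early and feedback genes that respond within minutes to stress and cell handling, chosen after the data were seen, was lower in several gates, some with a lower Cxcl10 call and some without. In macrophages 12 of the 16 were lower and 0 higher in the CIA library, and their summed level was 7413 CPM there and 20470 CPM in the control library. In endothelial cells 13 were lower and 0 higher, with summed levels of 3198 CPM and 10410 CPM. In monocytes, where Cxcl10 was not lower, 1 of 16 was lower, with 15070 CPM and 19360 CPM. In lining fibroblasts 13 were lower, with 2578 CPM and 7749 CPM, though Cxcl10 had too few UMIs there to be measured. In fibroblasts, where Cxcl10 was called lower, 4 were lower, with 2321 CPM and 4199 CPM. In sub-cluster M4, which made up 3.07% of CIA and 69.1% of control macrophages, the summed level was 25520 CPM in the CIA library and 24160 CPM in the control library. In M1 it was 5115 CPM and 6161 CPM, and in M2 11010 CPM and 11330 CPM. Cxcl10 was alike in M4 and in M1 and differed in M2, as given above, with 14 control M2 cells carrying it. In M5, the cycling macrophages, the list stood at 4876 CPM and 15680 CPM and Cxcl10 at 26.1 CPM and 119 CPM. The part of this response in the Cxcl10 difference, and of the gate's makeup in the summed levels, was not tested.

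Cxcl9, the neighbour of Cxcl10 on chromosome 14, did not share that difference. Endothelial cells had 39.3 CPM (256 UMIs) in the CIA library and 33.1 CPM (324 UMIs) in the control library, a ratio of 1.19 (1.00 to 1.40). At least 1 Cxcl9 UMI was found in 18.0% of CIA endothelial cells (14.9 to 21.5) and 18.4% of control ones (15.5 to 21.6), against 1.36% of CIA and 1.11% of control fibroblasts. Within the endothelium, sub-cluster E2, led by immediate-early genes such as Atf3 and Egr1, had 86.5 CPM (70.3 to 106) in the CIA library and 37.4 CPM (30.7 to 45.1) in the control library, whereas Cxcl10 in E2 was at 26.5 CPM (17.9 to 37.8) and 114 CPM (102.2 to 127). The immediate-early list stood in E2 at 4035 CPM in the CIA library and 18860 CPM in the control library. These sub-clusters were looked at after their values were seen, and the difference between the genes was not tested.

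Outside the endothelium Cxcl9 lay in very few cells. In macrophages it was at 23.2 CPM in the CIA library and 17.1 CPM in the control library, but 1 cell held 34.8% of the CIA and 1 cell 50.6% of the control UMIs. In fibroblasts 1 cell held 66.0% of the CIA and 86.6% of the control UMIs, and the ratio of 0.726 turned to 1.84 when the cell with the most was left out of each library. Of the 52 Cxcl9 UMIs in CIA monocytes, 84.6% came from 1 cell, and control monocytes had 1 UMI. Over all kept cells, 10 CIA and 5 control cells held more than 50% of the Cxcl9 UMIs of their library.

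Among endothelial cells, Cxcl10 was found in 15.2% (8.74 to 23.8) of the 99 CIA cells with Cxcl9 and 7.11% (4.92 to 9.89) of the 450 without it, intervals that overlap. In the control library it was found in 35.5% (27.1 to 44.7) of the 121 endothelial cells with Cxcl9 and 22.0% (18.6 to 25.8) of the 536 without it. Outside endothelial cells and macrophages few cells carried Cxcl9, and Cxcl10 was in 0 of the 10 CIA and 0 of the 2 control lining fibroblasts with it. The cells with Cxcl9 were deeper, at medians of 12680 against 8268 UMIs in the CIA library and 17090 against 10540 UMIs in the control library, and the part of depth in this was not tested.

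The promoters of these neighbouring genes are shown because the levels of Cxcl10 and Cxcl9 differed in opposite directions within endothelial sub-cluster E2, chosen after its values were seen. The share of E2 cells carrying Cxcl9 was close in the libraries, as given above. The sequences are RefSeq's, on build GRCr8, each of 300 bases that end shortly after the annotated start of the gene, plus strand, at chr14:15988816-15989115 for Cxcl10 and chr14:16006916-16007215 for Cxcl9. They were searched on both strands for the core of the interferon-stimulated response element (GAAA, any 2 bases, GAAA), an NF-kB site (GGGA, any 2 bases, TTCC) and the gamma-activated site (TTC, any 3 bases, GAA), and capitals mark the matches.
Cxcl10: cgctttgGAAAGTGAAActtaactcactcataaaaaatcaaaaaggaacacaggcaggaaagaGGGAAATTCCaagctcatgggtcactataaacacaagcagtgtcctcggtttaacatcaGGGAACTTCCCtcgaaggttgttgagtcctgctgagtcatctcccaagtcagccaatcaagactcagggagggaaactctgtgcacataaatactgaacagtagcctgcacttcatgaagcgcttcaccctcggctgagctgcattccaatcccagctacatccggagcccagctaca
Cxcl9: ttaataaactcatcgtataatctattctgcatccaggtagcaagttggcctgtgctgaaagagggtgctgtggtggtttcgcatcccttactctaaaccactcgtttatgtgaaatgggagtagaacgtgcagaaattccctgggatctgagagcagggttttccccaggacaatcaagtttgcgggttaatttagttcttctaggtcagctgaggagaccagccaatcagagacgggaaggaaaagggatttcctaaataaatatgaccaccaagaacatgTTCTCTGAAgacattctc
The Cxcl10 window held the interferon element 243 bases before the start and NF-kB matches 187 and 128 bases before it, the second overlapping a match on the other strand. The Cxcl9 window held a gamma-activated site match 33 bases after the start and neither of the other patterns as spelled here. Over all 33469 promoters in the table, 3.92% held the interferon element, 1.3% the NF-kB site and 8.87% the gamma-activated site. The windows of Cxcl12, Cxcl13 and Cxcl14 held none of the 3 motifs. A match is a run of letters and not a measured binding site, and other spellings or lengths of these sites were not searched for.

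Of the 20 interferon inducers and responders on the fixed list, Irf1 was the gene that passed the size rule most widely. Irf1, an interferon- and NF-kB-induced transcription factor, was at 58.1 CPM in CIA and 138 CPM in control macrophages, a ratio of 0.423 (0.392 to 0.456). In endothelial cells it was at 44.2 CPM and 128 CPM, a ratio of 0.347 (0.304 to 0.394), and in lining fibroblasts at 17.9 CPM and 41.1 CPM, a ratio of 0.435 (0.342 to 0.555). Within M2, however, it was at 87.6 CPM in the CIA library and 81.7 CPM in the control library. Isg15, a ubiquitin-like protein induced by type I interferon, was lower in lining fibroblasts, on 50 CIA and 79 control UMIs (5.65 CPM and 26.2 CPM).

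The rest of the list showed no common shift. In macrophages 16 of its 20 genes were measured, 1 higher and 1 lower, with a median log2 ratio of -0.02 beside 0.12 over all 9009 genes measured. In endothelial cells 17 were measured, 0 higher and 1 lower, with a median of 0.02 beside 0.10 over 8652 genes. In lining fibroblasts 12 were measured, 0 higher and 2 lower, and in fibroblasts 14 and in monocytes 9 were measured with 0 past the rule. The gene higher in macrophages was Cxcl11, the third Cxcr3 ligand, with 99 CIA and 9 control UMIs, a ratio of 5.13 (2.59 to 11.5). It was carried by 22 of 2017 CIA macrophages (1.09%) and 8 of 708 control macrophages (1.13%), so the ratio rested on UMIs per carrying cell. Ifng, the gene of interferon gamma, had 0 UMIs in macrophages and endothelial cells of either library, and 2 UMIs over all CIA and 9 over all control cells. A count of 0 allows up to 0.135 CPM in CIA and 0.289 CPM in control macrophages, and up to 0.461 CPM in CIA and 0.307 CPM in control endothelial cells.

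**Figure D4:**
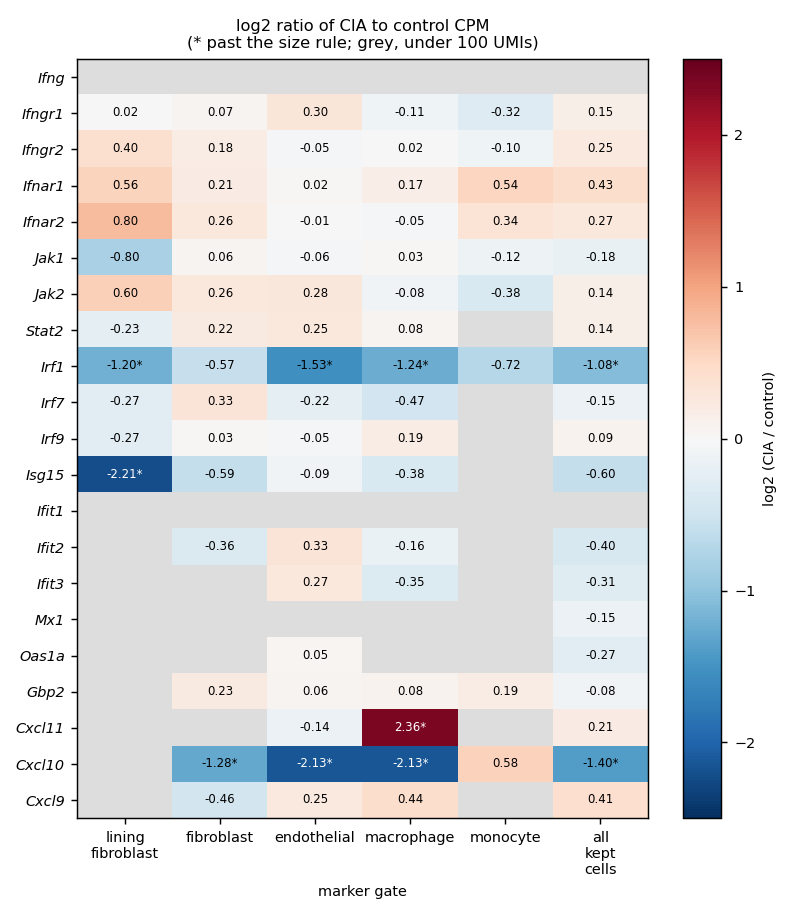
Log2 ratio of CIA to control CPM (colour and number) for the interferon list without 1 gene that is not reported, Cxcl10 and Cxcl9 (rows) in the compared gates and all kept cells (columns); stars mark genes past the size rule and grey cells have under 100 UMIs over both sums. Negative values stand at Irf1 and Cxcl10, at -1.24 and -2.13 in macrophages.

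Cxcl13 had its highest level in lining fibroblasts, the Prg4-rich cells at the surface of the synovium. It was at 1243 CPM (11000 UMIs) in the CIA library and 349 CPM (1053 UMIs) in the control library, a ratio of 3.56 (3.35 to 3.8). Of all Cxcl13 UMIs, this gate held 34.0% in the CIA library but 7.05% in the control library. Fibroblasts held 15.8% and 21.3%, macrophages 15.95% and 19.3%, and cells in no gate 31.6% and 49.8%. At least 1 UMI was found in 38.8% of CIA lining cells (34.7 to 43.1) and 18.3% of control ones (13.4 to 24.2), beside 16.4% of CIA and 13.2% of control endothelial cells. The control lining share overlaps that endothelial share in its interval (10.7 to 16.1) and is read as background for the gate as a whole. In the sub-clusters described below it was 15 of 128 control cells in L2 (11.7%) and 18 of 59 in L4 (30.5%). The median depth of these cells was 15280 UMIs in the CIA library and 11820 in the control library. The level in the control library rested on 6 of its 213 lining cells, which held 95.1% of these UMIs, and 1 cell held 50.2%. Without the cell with most Cxcl13 in each library the ratio was 6.15.

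The lining gates of the libraries were made of different cells. Of the CIA lining cells 61.7% lay in cluster 2, led by Gfpt2, Has1, Htra4 and Prg4, and of the control ones 61.5% lay in cluster 15, led by Clic5 and F13a1. Cluster 2 had 785 CPM (770 to 800) in 879 CIA cells and 945 CPM (918 to 972) in 268 control cells. Cluster 15 had 16.3 CPM in 26 CIA cells and 10.6 CPM (6.78 to 15.7) in 211 control cells. With clusters in place of gates the ratio was 1.20 and the higher call ended. With the sub-clusters of the gate weighted alike, however, levels were 1079 CPM in the CIA library and 349 CPM in the control library, a ratio of 3.10, in which L1 and L3 enter with few control cells. By sub-clusters of the gate, Postn-led L4 was at 996 CPM (959 to 1034) in 175 CIA cells and 1065 CPM (1001 to 1132) in 59 control cells. Clic5-led L2 was at 34.1 CPM in 14 CIA cells and 11.6 CPM in 128 control cells. L1, led by Arl4a, Timp3 and Gap43, was at 1132 CPM (1101 to 1163) in 280 CIA cells and 40.9 CPM (21.1 to 71.4) in 15 control cells, and the cycling L3 at 2164 CPM in 69 CIA cells and 13.9 CPM in 11 control cells. All 6 of the control lining cells with at least 1000 CPM lay in L4, where they were 6 of 59 cells, against 9 of 175 in the CIA library. The other 42 such CIA lining cells lay in L1 and L3. Among lining cells under 1000 CPM of Cxcl13, fibroblast markers made up a median of 5.85% of UMIs in the CIA library and 1.68% in the control library. The part of this makeup in the gate's Cxcl13 difference was not tested.

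Cxcl13 was held by a small number of very rich cells in several gates. Of the 8409 CIA cells, 42 held 50% of all Cxcl13 UMIs, and of the 5349 control cells 14 did. Cells in which Cxcl13 made up at least 1000 CPM were 330 in the CIA library (3.92%, 3.52 to 4.36) and 136 in the control library (2.54%, 2.14 to 3.00), and they held 88.6% and 86.0% of its UMIs. In the richest CIA lining cell Cxcl13 reached 99170 CPM. Such rich cells were 51 of 538 CIA lining cells (9.48%, 7.14 to 12.3) and 6 of 213 control ones (2.82%, 1.04 to 6.03). Among fibroblasts they were 98 of 1621 CIA cells (6.05%) and 58 of 1169 control cells (4.96%), and among macrophages 46 of 2017 CIA cells (2.28%) and 24 of 708 control cells (3.39%). Of the cells in no gate they were 125 of 3048 CIA cells (4.10%) and 44 of 1798 control cells (2.45%). In endothelial cells they were 2 of 549 in the CIA library and 0 of 657 in the control library, where 3 counts, the limit used for a count of 0, would be 0.457%. Both CIA cells lay in sub-cluster E6, led by the matrix genes Chad and Postn.

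**Figure D5:**
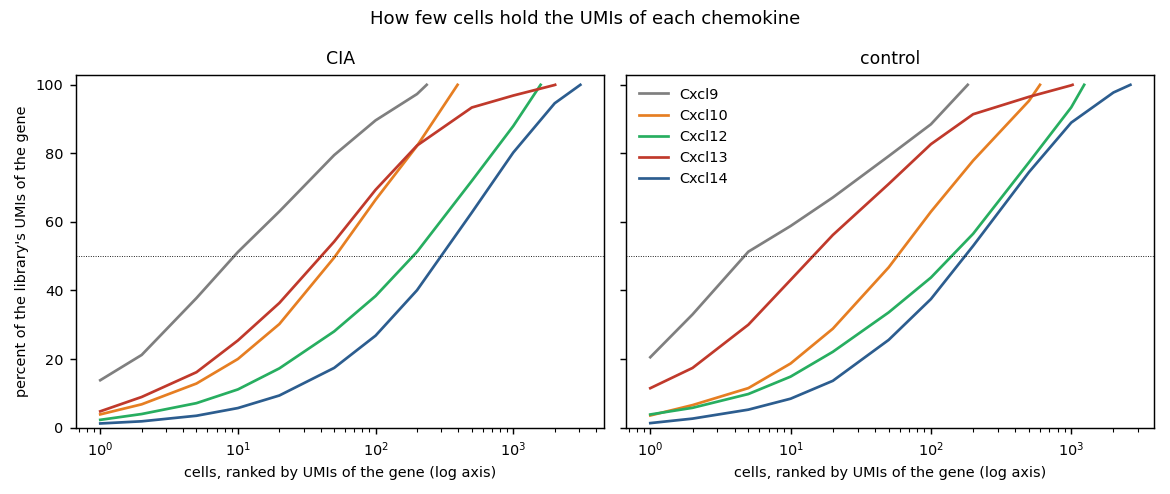
Share of a library's UMIs of each chemokine (y axis, percent) held by its richest cells (x axis, number of cells, log scale), CIA left and control right; the dotted line marks 50%. Cxcl9 and Cxcl13 reach it in 10 and 42 CIA cells and in 5 and 14 control cells, whereas Cxcl14 needs 305 CIA and 177 control cells.

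The rich macrophages carried macrophage markers at levels close to those of the other macrophages. In those with at least 1000 CPM of Cxcl13 the macrophage markers made up a median of 8.72% of UMIs in the CIA library and 7.64% in the control library, beside 9% and 7.09% in the other macrophages. Lining fibroblast markers made up 0.0352% and 0.0184% of their UMIs, beside 0.0483% and 0.0252% in the other macrophages. For each 100 UMIs of Prg4, the lining cells' most abundant marker, macrophages had 30.0 Cxcl13 UMIs in the CIA library (29.0 to 30.9) and 73.5 in the control library (70.0 to 77.1), against 3.49 and 0.942 in lining cells. Endothelial cells had 4.43 and 4.63 and monocytes 3.31 and 3.82 per 100 Prg4 UMIs. The share of macrophages with at least 1 Cxcl13 UMI, 17.4% in the CIA library and 19.2% in the control library, lay beside 16.4% (13.4 to 19.8) and 13.2% (10.7 to 16.1) of endothelial cells. In the CIA library these shares differed by less than counting error and are read as background, and in the control library the macrophage share was higher. The ratio to Prg4 was higher in macrophages than in the other 4 compared gates in either library, beyond counting error, while some of the other gates overlapped in it. Counting error leaves out that 46 CIA and 24 control cells held 92.1% and 94.4% of the macrophages' Cxcl13 UMIs. The part of free RNA and of doublets in the macrophage value was not tested.

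In level, Cxcl13 in macrophages was at 232 CPM (226 to 238) in the CIA library and 278 CPM (268 to 288) in the control library, a ratio of 0.835 (0.798 to 0.874). In fibroblasts it was at 276 CPM (269 to 284) and 194 CPM (187 to 201), a ratio of 1.42 (1.36 to 1.49), and over all kept cells at 318 CPM and 199 CPM, a ratio of 1.6 (1.57 to 1.63). None of these passed the size rule, and under the stricter gate limit the fibroblast ratio was 0.957. In endothelial cells Cxcl13 was at 24.9 CPM and 12.5 CPM, which passed as higher only under the looser gate limit (ratio 2.52). Among fibroblast sub-clusters F1, led by Cxcl3, Cxcl6 and Mmp13, was at 305 CPM (293 to 318) and 321 CPM (305 to 338). F2, led by C1qtnf3, was at 314 CPM in the CIA library and 70.3 CPM in the control library, and F3, led by Pla2g2a and C3, at 110 CPM and 291 CPM, so the order of the libraries turned round between sub-clusters. Rich cells were 60 of 708 CIA and 32 of 384 control F1 cells, 19 of 454 and 7 of 386 F2 cells, and 8 of 362 and 17 of 259 F3 cells.

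Cxcl12 came mostly from endothelial cells and fibroblasts. Endothelial cells were at 290 CPM (277 to 304) in the CIA library and 150 CPM (143 to 158) in the control library, a ratio of 1.93 (1.80 to 2.07), just under 2-fold. The ratio passed the size rule when each cell was thinned to 4000 UMIs (2.03) and when the cell with most Cxcl12 was left out of each library (2.01). At least 1 UMI was found in 35.9% of CIA endothelial cells (31.9 to 40.0) and 26.0% of control ones (22.7 to 29.6), against 4.21% of CIA and 7.34% of control macrophages. Fibroblasts were at 81.5 CPM and 67.7 CPM, a ratio of 1.20 (1.11 to 1.30), and all kept cells at 47.3 CPM and 47.9 CPM, a ratio of 0.988 (0.946 to 1.03).

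Within the endothelium, Cxcl12 was highest in 1 sub-cluster and lower in the others. E1, led by the connexin genes Gja4 and Gja5, which mark arterial endothelium, was at 855 CPM (812 to 899) in the CIA library and 792 CPM (746 to 840) in the control library. E3, led by Ubd and Selp, the gene of P-selectin, was at 15.6 CPM (10.6 to 22.2) and 26.0 CPM (20.8 to 32.1). E1 made up 29.5% of CIA endothelial cells (162 of 549) and 15.2% of control ones (100 of 657). E2 was at 148 CPM (126 to 172) and 64.8 CPM (55.9 to 74.7), and the cycling E5 at 128 CPM (109 to 150) and 47.6 CPM (37.99 to 59.0). With the sub-clusters weighted alike, levels were 238 CPM and 190 CPM, a ratio of 1.25. Cells with at least 1000 CPM of Cxcl12 were 58 of 549 CIA endothelial cells (10.6%, 8.12 to 13.4) and 39 of 657 control ones (5.94%, 4.25 to 8.03). They held 70.7% of the endothelial Cxcl12 UMIs in the CIA library and 70.8% in the control library.

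Cxcl14 was a fibroblast and chondrocyte gene. Fibroblasts were at 436 CPM (427 to 446) in the CIA library and 787 CPM (774 to 801) in the control library, a ratio of 0.554 (0.539 to 0.570), which did not reach 2-fold. Lining fibroblasts did not share this, at 148 CPM (140 to 156) and 145 CPM (132 to 159), a ratio of 1.02 (0.915 to 1.14), although the ratio was 0.462 with their sub-clusters weighted alike and 0.608 with clusters in place of gates. Over all kept cells the gene was at 196 CPM in the CIA library and 381 CPM in the control library, a ratio of 0.513 (0.504 to 0.522).

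The lower fibroblast level was seen across sub-clusters. F3 had the most, at 814 CPM (786 to 842) in the CIA library and 1610 CPM (1571 to 1649) in the control library. F1 was at 355 CPM (342 to 369) and 499 CPM (478 to 519), and F2 at 318 CPM (304 to 334) and 416 CPM (398 to 434). In the cycling F5 it was at 253 CPM and 784 CPM. Fibroblasts with at least 1 UMI were 62.9% of CIA cells (60.5 to 65.2) and 70.1% of control cells (67.3 to 72.7), against 9.47% of CIA and 26.0% of control endothelial cells. Fibroblasts with at least 1000 CPM were 200 of 1621 in the CIA library (12.3%, 10.8 to 14.0) and 221 of 1169 in the control library (18.9%, 16.7 to 21.3).

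Cxcl14 in endothelial cells was low, and its lower call rested on 9.68 CPM in the CIA library against 24.4 CPM in the control library (ratio 0.396, 0.295 to 0.525). Endothelial cells with at least 1000 CPM were 0 of 549 and 0 of 657, for which 3 counts over the cells, the limit used here for a count of 0, come to 0.546% and 0.457%. The share of endothelial cells with a UMI was close to that of macrophages, 10.9% in the CIA library and 23.6% in the control library, and is read as background. For each 100 UMIs of Col1a1, the fibroblasts' collagen gene, endothelial cells had 0.662 Cxcl14 UMIs in the CIA library and 1.49 in the control library, beside 1.39 and 2.21 in fibroblasts and 1.53 and 1.85 in macrophages. The part of free RNA in the endothelial value was not tested.

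Of the receptors of these chemokines, Cxcr3 and Cxcr5 were sparse and Cxcr4 and Ackr3 were not. Cxcr3, the receptor of Cxcl9 and Cxcl10, had 70 UMIs over all CIA cells and 64 over all control cells, and Cxcr5, the receptor of Cxcl13, had 4 and 8. Cxcr4, the receptor of Cxcl12, was lower in CIA macrophages, at 81.0 CPM against 175 CPM in control ones (ratio 0.463, 0.433 to 0.494), and in CIA monocytes, at 107 CPM against 256 CPM (0.418, 0.357 to 0.488). In endothelial cells Cxcr4 was at 53.9 CPM and 41.9 CPM, a ratio of 1.29. Ackr3, which takes up and clears Cxcl12, was at 442 CPM in CIA and 458 CPM in control lining fibroblasts and at 214 CPM and 216 CPM in fibroblasts, ratios of 0.966 and 0.993. Dpp4, the peptidase that trims several of these chemokines, was lower over all kept cells, at 2.89 CPM and 9.04 CPM. Endothelial cells, the only compared gate with enough UMIs for Dpp4, went the other way. They were at 22.9 CPM and 15.95 CPM, a ratio of 1.435 (1.14 to 1.81) that did not pass the size rule. They held 149 of the 294 CIA and 156 of the 680 control Dpp4 UMIs. The part of cell makeup in the difference over all kept cells was not tested.

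The other fixed lists held few genes past the size rule. Of the marrow niche and Cxcl12 context list, Vcam1, an adhesion molecule, was lower in lining fibroblasts, at 129 CPM in the CIA library and 347 CPM in the control library (ratio 0.371, 0.341 to 0.404). Csf1, the macrophage growth factor, was lower in macrophages, at 20.3 CPM and 94 CPM (0.216, 0.193 to 0.242), and Lepr, the leptin receptor, over all kept cells, on 28 CIA and 87 control UMIs. Of these, 20 CIA and 71 control UMIs lay in endothelial cells, at 3.07 CPM and 7.26 CPM, too few UMIs for the gene to be measured there. Endothelial cells were 6.53% of kept CIA cells and 12.3% of kept control cells, and the part of this in the Lepr difference was not tested. The marrow stroma gate, with 24 CIA and 7 control cells, held 0 Lepr UMIs in either library. Lepr is among the markers of that gate, so its name rests on the other markers. In endothelial cells, the main source of Cxcl12, 6 of that list were measured and 0 passed. Of the 10 lymphoid tissue factors listed, 7 were found by symbol in both libraries, so Ltb, Tnfsf11 and Ccl21 could not be examined. Of those found, 3 were measured in lining fibroblasts and 4 in fibroblasts, and 0 passed in either. Nfkb2, the NF-kB subunit used downstream of lymphotoxin, was lower in monocytes, at 29.2 CPM and 65.7 CPM. The B cell survival factor gene Tnfsf13b was at 8.40 CPM in CIA and 8.28 CPM in control macrophages, and the gene of lymphotoxin alpha, Lta, had 2 CIA and 4 control UMIs over all kept cells.

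The genes most alike in pattern were looked up over 13 profiles, the summed levels of each gate and library with at least 50 cells, as log2 of CPM plus 10, among 10330 genes. For Cxcl10 these were Nfkbia, Neurl3, Irf1, Plk2 and Dusp6, with Pearson correlations of 0.869 to 0.883. For Cxcl12 they were Nox4, Phldb2, Dpysl3, Inhbb and Smarca2 (0.957 to 0.973), and for Cxcl14 Lox, Crispld2, Twist1, Bgn and Col6a1 (0.969 to 0.981). For Cxcl13 they were Lrrn4cl, Meis3, Tom1l1, Ilk and Prune2 (0.862 to 0.912), and for Cxcl9 Nthl1, Stat5b, Lap3, Nxpe3 and Prcp (0.850 to 0.880). The profiles share libraries and gates, so the correlations are a description. Between the members the correlation ran from -0.62 for Cxcl10 and Cxcl14 to 0.52 for Cxcl9 and Cxcl12.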

How the data were processed

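The assay was droplet single-cell RNA sequencing (Chromium 3', version 2, per the labels' protocols). The authors deposited raw UMI counts per gene and cell barcode for each library, on genome build mRatBN7.2 per the submitters' processing notes. Aligner, cell calling and strand use: not given in the sources used here, so overlapping and antisense genes may share counts. The counts had no replicates, and the depths above set the counting error.

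From these counts, cells were kept if they had 200 genes or more and no more than 20% of mitochondrial UMIs. Doublets called by Scrublet in scanpy 1.11.5, 1.94% of CIA and 1.15% of control barcodes, were removed. Counts were summed over the 18147 genes listed for both libraries. A gate took cells whose mean marker z-score (clipped at 3) was at least 0.5 and led every other type by 0.25, with at least 3 markers and at least 0.5 of those found carrying a UMI. Of 165 fixed markers 147 were found. These limits were set after the scores were seen. Within 0.1 of the limit lay 434 CIA and 277 control cells inside the fibroblast gate and 464 and 283 outside it, 273 and 93 inside and 204 and 85 outside the macrophage gate, and 26 and 11 inside and 31 and 10 outside the lining gate. Clusters (Leiden, resolution 0.5, 2000 variable genes, 30 components, 15 neighbours) and sub-clusters (resolution 0.3, 20 components) left the 5 chemokines out. Shares were recomputed with each cell thinned to 4000 UMIs, and 0 kept cells were too shallow for this. A fold against a sum at 0 would use a floor of 3 counts.

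The members and lists were chosen with earlier results of these data known, and the immediate-early list and both alternatives named as added were chosen after the values were seen. The text names all 5 members, list genes past the size rule in the members' main source gates, and for each member the 5 genes of most alike pattern among those with at least 500 UMIs. The other list genes named and the sub-clusters described were chosen after their values were seen. Values of 1 interferon list gene are not reported here, though list counts include it. The size rule was checked on simulated Poisson counts with known folds. They held no variation between cells or animals, so the check covers counting error only. Software was Python 3.11.15, scipy 1.17.1, numpy 2.4.6 and edgeR 4.0.16 (TMM factors, under R 4.3.3).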

Additional observations from a re-analysis of the deposited data

How the results depend on the processing

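For each member's difference in its main source gate, 53 recomputed values moved by less than the counting interval, 17 moved further and 0 changed sign. In the other gates and over all kept cells 260 stayed within it and 64 did not. Both tallies include the settings that changed only the minimum number of UMIs. Such a setting alters which genes are measured and cannot move a ratio. Some of the values within the interval were therefore unmoved by construction, and the tallies overstate how stable the differences were. Among uncalled values some changed sign, such as Cxcl9 in fibroblasts (-0.46, and 0.32 under the looser gate), Cxcl14 in monocytes (0.63, and -0.68 under the looser gate) and Cxcl14 in lining fibroblasts (0.03, and -0.72 with clusters). As log2 ratios, Cxcl13 in lining fibroblasts (1.83) was 1.96 with TMM factors, 0.26 with clusters in place of gates, 1.95 thinned, 2.62 without the richest cell of each library, 3.13 without the 1% of cells with most UMIs, 2.05 as a mean of per-cell CPM and 1.63 with sub-clusters weighted alike. Its higher call ended with clusters. Cxcl10 in macrophages (-2.13) was -2.43 thinned, -2.39 without the 1% of cells and -0.94 weighted alike, where its call ended. Cxcl12 in endothelial cells (0.95) was 0.84 with a mitochondrial limit of 10%, 1.12 without the 1% of cells, which passed the size rule, and 0.32 weighted alike. Cxcl14 in fibroblasts (-0.85) was -0.79 under the stricter gate, -0.58 thinned, -0.60 as a mean of per-cell CPM and -0.79 weighted alike. The cause of these moves was not tested.

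Genes past the size rule in lining fibroblasts (417) were 266 with clusters, 199 thinned, 652 with a minimum of 20 UMIs and 798 with none. Those in fibroblasts (129) were 57 thinned, 230 and 288. Thinned counts were 147 in monocytes (283) and 79 in endothelial cells (181), and with no minimum they were 489 and 306, 570 in macrophages (368) and 993 over all kept cells (652).

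With 1 library per group, no spread between animals is known. Values of Cxcl9 outside endothelial cells and of Cxcl13 in control lining fibroblasts rest on few cells. Chondrocytes, with 30 CIA cells, were not compared. No paired analysis was possible because each group holds 1 library and no test was run.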
